A study of Arabidopsis thaliana with 12 samples.

Results

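A group of 43 nuclear genes in seeds of Arabidopsis thaliana stood at least 32 times higher after 6 h of imbibition (water uptake) than in dry seeds of the wild type. The group runs from wall-loosening expansins to transcription factors, a receptor of abscisic acid (ABA) and 2 small nucleolar RNAs. Members were chosen on the wild type alone: the mean over the 3 imbibed Col-0 libraries had to reach 3 CPM (a count scaled to the total of its library) and 32 times the mean over the 3 dry Col-0 libraries. Of 32548 nuclear genes among the 32833 in the table, 49 (0.151%) passed, and 6 of these, set aside by name, are not described, which leaves 43. The member means ran from 0 to 4.4 CPM in dry Col-0 (median 0.14 CPM, with 7 members at 1 CPM or more in each library) and from 3.03 to 356.7 CPM in imbibed Col-0 (median 10.86 CPM). Levels in Col-0 therefore describe how the genes were chosen and are given without a test. The libraries labelled erf4 took no part in the choice, and the same change was tested there.

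A dry seed holds stored messenger RNAs made during maturation on the mother plant. When it takes up water, metabolism and transcription resume within hours, long before the root tip emerges. Walls of the embryo and of the endosperm are loosened before emergence, and the balance of ABA, which holds germination back, and gibberellin, which promotes it, sets whether the seed germinates.

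Total RNA was sequenced from seeds of wild-type Col-0 and of erf4-1, a mutant in the same ecotype whose samples carry the label of an ERF4 knockout. ERF4 is a repressor of the ethylene response factor family. In both genotypes freshly harvested seeds were taken dry or after 6 h on wet filter paper, which made 4 groups of 3 libraries (dry Col-0, imbibed Col-0, dry erf4, imbibed erf4). The plants had grown in soil in long days, and the seeds were not after-ripened. Whether replicates were grown or harvested apart is not given in the labels, and p-values therefore measure only the scatter of these samples, possibly a technical one.

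Library totals ranged from 31787283 to 42590777 counts, at which 3 counts correspond to 0.070 to 0.094 CPM. ERF4 itself stood at 9.28 to 13.8 CPM in dry Col-0 and 18.2 to 24.5 CPM in imbibed Col-0. In libraries labelled erf4 replicates 1, 2 and 3 it stood at 3.57, 7.02 and 14.2 CPM when dry and at 2.09, 8.31 and 19.3 CPM when imbibed. ERF4 in replicate 3 thus went against the label, and in replicate 2 it lay between replicate 1 and Col-0 in both states. Each statement on the mutant follows the labels. The seed markers (storage proteins, an oleosin and PER1) made up 78559 to 161647 CPM in every library, whereas of the endosperm markers EPR1 was abundant and RGE1 was at or near 0. In bulk seeds, fewer cells of a type and less RNA per cell cannot be told apart. On the CPM scale the median nuclear gene tested also stood higher in imbibed seeds, by 0.52 on the log2 scale in Col-0 and 0.53 in libraries labelled erf4 (0.1 CPM added to each mean). Over the 43 members these medians were 5.24 and 4.75.

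Just inside 32-fold lay LGT8 (34.2-fold), CYP94C1 (34.4-fold) and GSL11 (34.6-fold), and just outside it lay AT1G80640 (31.9-fold), CHLI1 (31.6-fold) and SIAR1 (31.6-fold). At the threshold of 3 CPM the nearest members were AT4G31330, AT1G62910 and EXLA2 (3.03, 3.32 and 3.43 CPM). The nearest genes below it were AT1G62590, AT1G63400 and AT5G66562 (2.94, 2.87 and 2.84 CPM).

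All 43 members passed the filter on low counts, and all 43 rose in the libraries labelled erf4 (edgeR quasi-likelihood test, Benjamini-Hochberg adjusted p under 0.05 over 18897 genes, highest adjusted p = 0.0191). Over all genes tested 28.4% rose and 27.2% fell. The median log2 fold change of the members in this fit, which scales libraries by TMM factors, was 4.69, against 0.04 over all genes. It ranged from 2.81 for EXLA2 upwards. In each of the 43 genes every imbibed library labelled erf4 stood above every dry one on the CPM scale, as did 47.7% of the 18791 nuclear genes tested. On the same scale the fold between group means was at least 32 in 25 of the 43, counting 2 genes without a dry count by their lower bound, and its median was 36.9, beside 71.0 in Col-0, where the rule had chosen the genes.

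The fitted rise of 25 members moved by over 1.5 times when 1 library labelled erf4 was left out, for 16 of them with the dry library of replicate 3 and for 13 with that of replicate 1. None lost its call in these fits. The values are given with each gene, except where the left-out library held all of a gene's dry counts labelled erf4. This was so for AT2G48030, RBL7, AT4G35985, AT1G17345 and AT3G23470. With no dry count left the fitted rise has no firm value, and it moved there by 7.39 times (RBL7) to 90.28 times (AT2G48030).

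**Figure D1:**
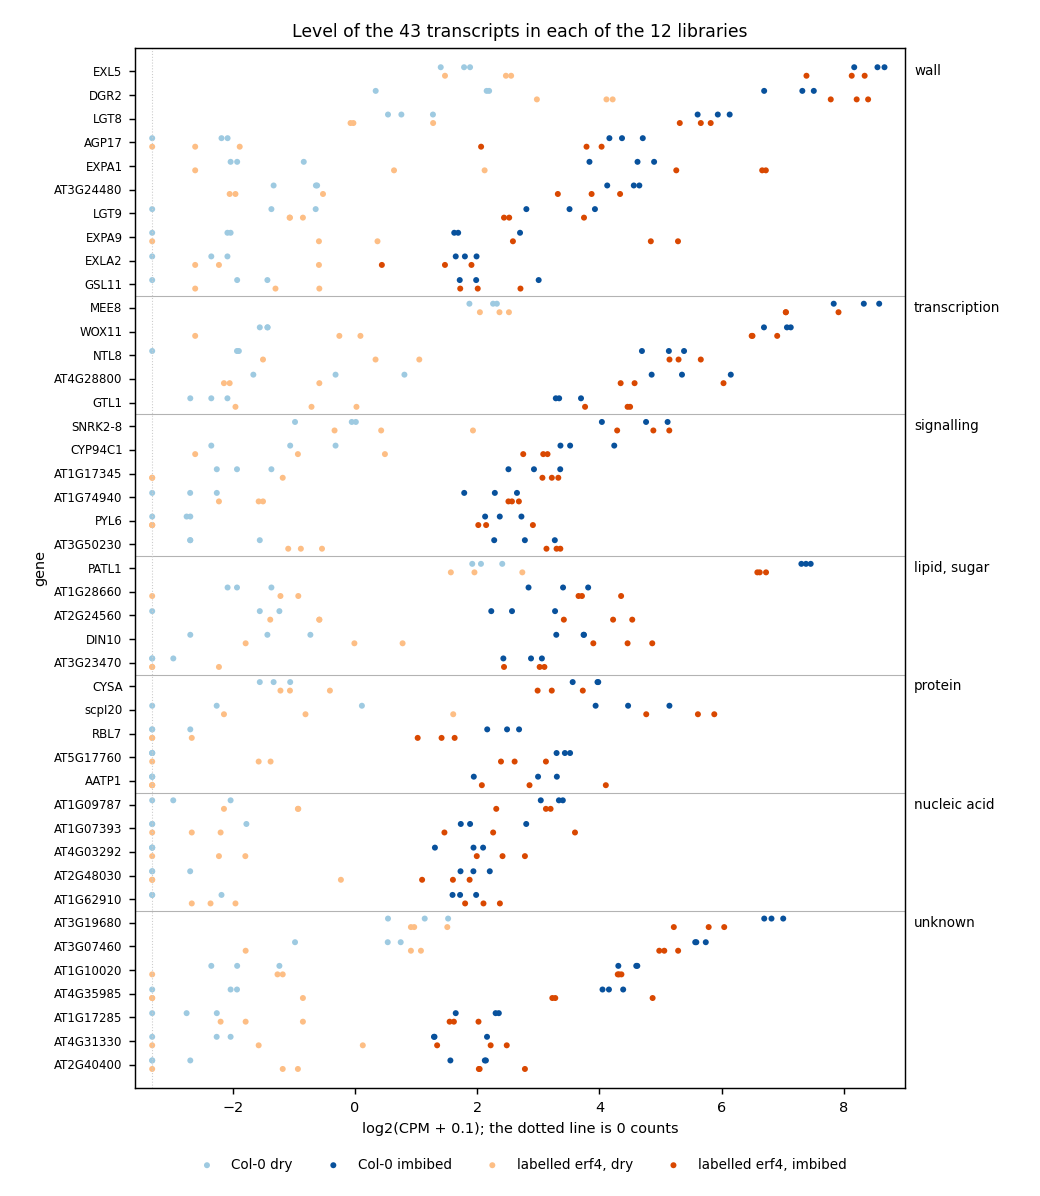
Level of each of the 43 members in the 12 libraries, as log2(CPM + 0.1), 1 point per library, grouped by role and ordered within a role by level per kb of exon. Imbibed libraries of both genotypes lie to the right of the dry ones in every gene, for Col-0 largely by the choice of members. Points on the dotted line have no count.

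**Figure D2:**
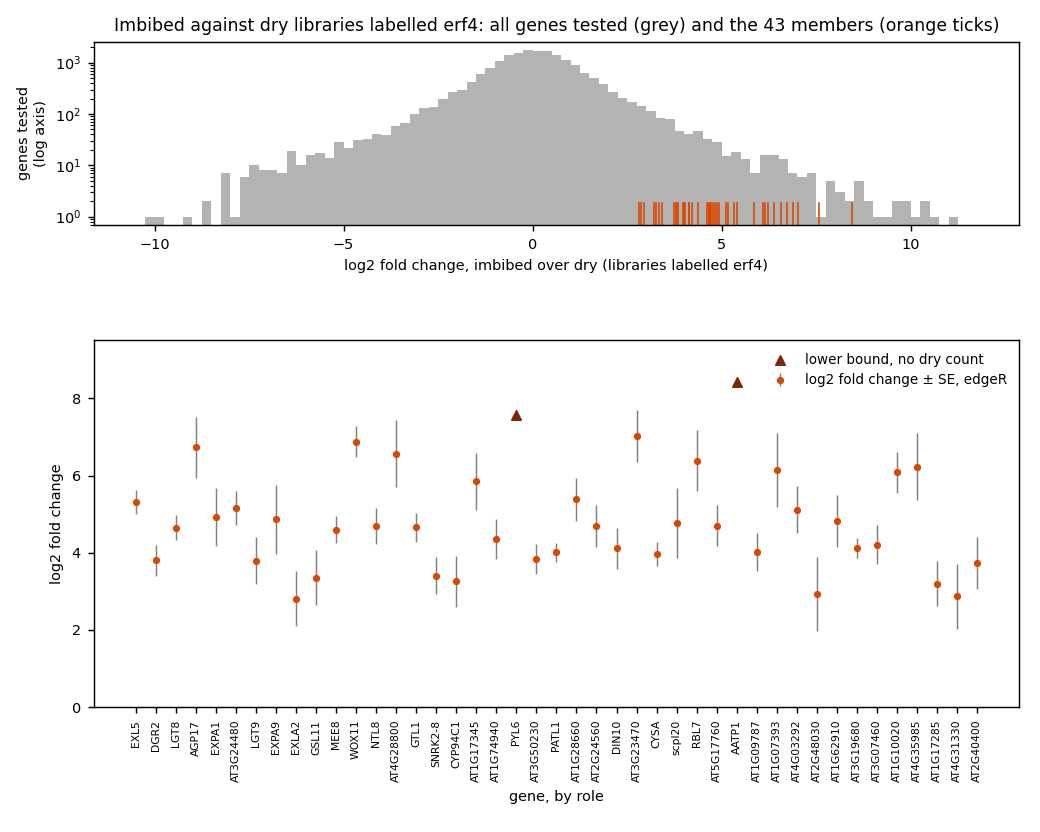
Top, log2 fold change of imbibed over dry libraries labelled erf4 for the 18897 genes tested (log count axis), with the members as orange ticks. Bottom, each member's log2 fold change ± SE (edgeR, 3 libraries per group), with triangles for the lower bounds of PYL6 and AATP1, which had no count in those dry libraries. The members lie between 2.81 and the bound of AATP1.

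Among the 41 protein-coding members the median number of exons was 2, and 24 of them (58.5%) had at most 2, whereas the median over 18138 protein-coding genes tested was 5, with 28.8% at 2 or fewer. Genes of 1 exon made up 12 of the 41 members (29.3%) and 14.6% of the genes tested. The median exonic length was 1757 bp in the members and 1797 bp in the genes tested. Members lay on all 5 chromosomes, 15 of them on chromosome 1 (34.9%, against 26.4% of the nuclear genes tested) and 5 on chromosome 5 (11.6% against 23.3%). In all, 3 pairs of members lay within 50000 bp of each other (AT1G17285 with AT1G17345, PYL6 with AT2G40400, and SNRK2-8 with AT1G09787), while the others lay farther apart. These shares are descriptions of the group and were not tested.

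**Figure D3:**
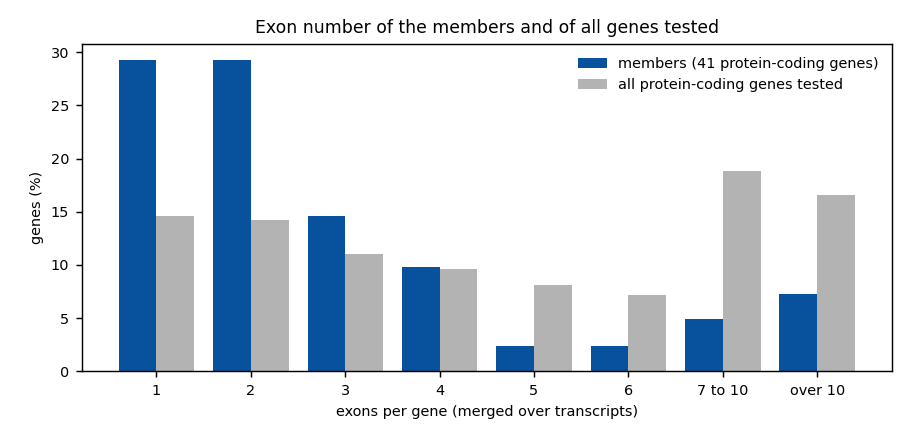
Share of genes (%) with each number of exons, merged over a gene's transcripts, for the 41 protein-coding members and for all protein-coding genes tested. Members of 1 or 2 exons make up 58.5%, against 28.8% of the genes tested.

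The 300 bases upstream of the annotated gene start were searched on both strands in the 41 protein-coding members and in 27443 protein-coding genes. The G-box CACGTG, bound by bZIP and bHLH factors, stood in 6 members (14.6%) and in 7.1% of all promoters. The W-box TTGACC, bound by WRKY factors, stood in 9 (22.0%) against 14.0%, and the TATA box TATAAA in 25 (61.0%) against 52.9%. The ABRE core ACGTGTC, which can overlap a G-box and is bound in ABA responses, was found in 3 members (7.3%, against 4.0%). The site II element TGGGCC, known from promoters of ribosomal protein and cell-division genes, was in 0 members and in 14.6% of promoters, and the telo-box AAACCCTA in 1 (2.4%, against 5.2%). The GCC-box GCCGCC, the letters that ERF4 and related factors bind, was in NTL8 alone (2.4%, against 2.3%). The DRE CCGAC stood in 4 (9.8%, against 13.9%), the heat shock element GAANNTTC in 2 (4.9%, against 11.5%) and the I-box GATAAG in 5 (12.2%, against 14.5%). The evening element AAAATATCT, the CAMTA box ACGCGT and the rapid stress response element CGCGTT were in none, and in 2.8%, 1.9% and 3.1% of promoters. A match describes letters in the window and is no evidence of binding.

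Shown here are 6 of these promoters: those of EXL5, MEE8 and WOX11, which were among the members with the highest levels, NTL8 with the only GCC-box, LGT9 with a G-box, and AATP1, which had no count in any dry library. None overlaps a neighbouring gene. Sequences come from the RefSeq assembly TAIR10.1 and run 5′ to 3′ on the strand of the gene up to the base before its start, with motif matches in capitals (in reverse complement where the match is on the other strand). EXL5 is chr2:7496293-7496592, MEE8 chr1:8874835-8875134, WOX11 chr3:892230-892529, NTL8 chr2:11681972-11682271, LGT9 chr1:8559067-8559366 and AATP1 chr5:16021917-16022216, of which all lie on the minus strand. The TATA box of WOX11 begins 45 bases before the start and those of EXL5 at 82 and 31. The TATAAA match of NTL8, at 51, is on the other strand. The GCC-box of NTL8 begins at 112 and its G-box at 297, and the G-box of LGT9 begins at 81.
EXL5: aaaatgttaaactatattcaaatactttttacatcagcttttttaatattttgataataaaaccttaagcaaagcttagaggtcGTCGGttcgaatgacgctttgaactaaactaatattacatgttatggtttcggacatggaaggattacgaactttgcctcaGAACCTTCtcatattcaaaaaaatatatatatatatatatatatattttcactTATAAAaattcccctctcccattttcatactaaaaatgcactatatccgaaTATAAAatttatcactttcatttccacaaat
MEE8: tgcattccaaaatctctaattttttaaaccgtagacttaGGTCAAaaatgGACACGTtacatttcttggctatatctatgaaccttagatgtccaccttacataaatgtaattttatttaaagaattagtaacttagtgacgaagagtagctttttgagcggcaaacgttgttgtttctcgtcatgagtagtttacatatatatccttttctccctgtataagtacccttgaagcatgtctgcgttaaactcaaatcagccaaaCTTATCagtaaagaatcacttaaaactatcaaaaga
WOX11: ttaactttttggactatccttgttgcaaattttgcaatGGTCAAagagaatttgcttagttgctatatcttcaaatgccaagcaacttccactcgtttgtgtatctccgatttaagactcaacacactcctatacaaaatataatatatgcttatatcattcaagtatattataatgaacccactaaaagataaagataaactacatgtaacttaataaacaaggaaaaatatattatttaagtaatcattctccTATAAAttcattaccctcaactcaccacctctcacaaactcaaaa
NTL8: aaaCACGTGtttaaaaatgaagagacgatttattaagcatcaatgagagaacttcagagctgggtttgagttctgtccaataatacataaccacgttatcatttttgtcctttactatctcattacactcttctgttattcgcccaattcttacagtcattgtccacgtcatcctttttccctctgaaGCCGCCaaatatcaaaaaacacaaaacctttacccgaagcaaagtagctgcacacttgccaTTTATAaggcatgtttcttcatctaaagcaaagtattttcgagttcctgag
LGT9: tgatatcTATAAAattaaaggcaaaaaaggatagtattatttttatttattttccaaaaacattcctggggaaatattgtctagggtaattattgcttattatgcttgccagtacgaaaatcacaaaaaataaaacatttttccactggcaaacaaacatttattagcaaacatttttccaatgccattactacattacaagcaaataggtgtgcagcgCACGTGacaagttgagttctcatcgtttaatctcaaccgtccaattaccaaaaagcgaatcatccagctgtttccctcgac
AATP1: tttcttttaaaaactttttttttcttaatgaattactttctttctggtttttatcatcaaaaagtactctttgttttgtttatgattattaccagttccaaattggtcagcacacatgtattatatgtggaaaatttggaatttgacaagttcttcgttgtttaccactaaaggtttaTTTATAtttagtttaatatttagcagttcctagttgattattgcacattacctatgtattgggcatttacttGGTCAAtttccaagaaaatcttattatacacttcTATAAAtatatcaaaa

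Roles were assigned from the annotation after the members were seen, so their sizes have no share over all genes to be read against. Of these roles the cell wall held the most members with a known function, at 10. Keywords in the annotation class 5 of the 10 as wall genes (EXPA1, EXPA9, EXL5, AGP17 and EXLA2). EXL5 belongs to the EXORDIUM family of secreted proteins, some of which promote cell expansion. It had 3.34, 3.59 and 2.54 CPM in dry and 288, 375 and 407 CPM in imbibed Col-0. In libraries labelled erf4 it had 5.78, 2.67 and 5.44 CPM when dry and 168, 325 and 280.2 CPM when imbibed. There every imbibed library stood above every dry one, as in 47.7% of the nuclear genes tested. The rise in libraries labelled erf4 was 5.31 ± 0.31 (log2 fold change ± SE, edgeR adjusted p = 1.4e-07). EXL5 had the highest mean CPM of all members in imbibed Col-0. The gene, of 1 exon, lies at 7494536 to 7496292 on chromosome 2.

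DGR2, of the wall-associated DUF642 family, had the highest mean CPM of the members in imbibed libraries labelled erf4. Its levels were 4.48, 4.35 and 1.16 CPM in dry Col-0 and 160.0, 182 and 104 CPM in imbibed Col-0. In libraries labelled erf4 they were 17.2, 7.77 and 18.5 CPM when dry and 338, 221 and 296 CPM when imbibed. In both states all libraries labelled erf4 lay above all Col-0 libraries, as in 11.5% (dry) and 20.5% (imbibed) of the nuclear genes tested. Col-0 levels had chosen the members, so here and for the genes below nothing is read from the order of the genotypes. The rise with imbibition in libraries labelled erf4 was 3.81 ± 0.40 (edgeR adjusted p = 1.08e-05). DGR2 shares 257 exonic bp with AT5G03985 on the other strand (0 to 50 counts per library), and with no strand setting given the reads of such pairs cannot be told apart.

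EXPA1 and EXPA9 encode alpha-expansins, which loosen walls in growing cells. EXPA1 stood at 24.6, 29.7 and 14.2 CPM in imbibed Col-0 and at 106, 38.2 and 101 CPM in imbibed libraries labelled erf4, from 0.459, 0.143 and 0.162 CPM and 1.46, 0.0629 and 4.25 CPM when dry. EXPA9 stood at 3.12, 6.401 and 2.98 CPM and at 28.6, 5.90 and 38.9 CPM, from 0.135, 0.143 and 0 CPM and 0.564, 0 and 1.19 CPM. In both genes and both states replicate 2 was the lowest of the libraries labelled erf4. EXPA1 rose by 4.93 ± 0.76 and EXPA9 by 4.87 ± 0.89 in those libraries (edgeR adjusted p = 0.000239 and 0.000723). Their relative EXLA2, an expansin-like gene, was low in both genotypes, with 3.03, 3.87 and 3.38 CPM in imbibed Col-0 and 1.25, 2.67 and 3.65 CPM in imbibed libraries labelled erf4 (2.81 ± 0.71, edgeR adjusted p = 0.00432). Without the dry library of replicate 3 the rises of EXPA1 and EXPA9 were 6.13 and 5.77. The dry libraries labelled erf4 held 24, 2 and 4 counts of EXLA2, whose rise was 4.25 without that of replicate 1. When both replicates 3 labelled erf4 were left out, EXLA2 no longer passed (log2 fold change 2.13, edgeR adjusted p = 0.053).

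Other wall members act on polysaccharides or sit at the cell surface. LGT8 and LGT9, also named GATL9 and GATL8, are putative galacturonosyltransferases. LGT8 stood at 60.0 ± 10.7 CPM (SD, n = 3) in imbibed Col-0 and 48.9 ± 8.48 CPM in imbibed libraries labelled erf4, from 1.75 ± 0.504 and 1.35 ± 0.843 CPM when dry. LGT9 stood at 11.1 ± 4.12 and 8.10 ± 4.54 CPM, from 0.275 ± 0.270 and 0.402 ± 0.0442 CPM. AGP17, an arabinogalactan protein of the cell surface, had 17.8, 26.1 and 20.6 CPM in imbibed Col-0. It had 4.08, 16.3 and 13.7 CPM in imbibed libraries labelled erf4, all below Col-0, after 0, 2 and 6 counts in the dry ones (6.73 ± 0.78, edgeR adjusted p = 2.04e-05). AT3G24480, a leucine-rich repeat gene, stood at 22.0 ± 4.07 CPM in imbibed Col-0 and 14.9 ± 5.13 CPM in imbibed libraries labelled erf4. GSL11, a glucan synthase-like gene of the callose synthase family, had the most exons of the group (42) and stood at 4.99 ± 2.57 and 4.52 ± 1.70 CPM. The rises of LGT8, LGT9, AT3G24480 and GSL11 in libraries labelled erf4 were 4.65, 3.80, 5.15 and 3.35 on the log2 scale (edgeR adjusted p = 3.2e-07, 0.000208, 1.19e-06 and 0.00137). Without the dry library of replicate 3 the rises of AGP17, AT3G24480 and GSL11 were 8.04, 6.08 and 4.0, and without that of replicate 1 those of AGP17 and LGT8 were 6.03 and 5.27.

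Transcription factors made up 5 members. MEE8, a basic helix-loop-helix (bHLH) gene of 438 exonic bp, had the highest level per kb of exon of all members in imbibed Col-0 (709.8 CPM per kb). Its dry levels were 3.56, 4.69 and 4.90 CPM in Col-0 and 5.05, 5.63 and 4.02 CPM in libraries labelled erf4. The imbibed levels were 228, 321 and 383 CPM and 133, 241 and 133 CPM, so the genotypes overlapped in each state. MEE8 rose by 4.60 ± 0.35 in libraries labelled erf4 (edgeR adjusted p = 7.61e-07). A further bHLH gene, AT4G28800, varied widely between libraries, with 28.8, 40.7 and 71.0 CPM in imbibed Col-0 and 20.3, 65.3 and 23.8 CPM in imbibed libraries labelled erf4 (6.57 ± 0.87, edgeR adjusted p = 7.94e-05). Its rise was 7.55 without the dry library of replicate 3 and 5.78 without the imbibed library of replicate 2.

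WOX11, a WUSCHEL-related homeobox gene, is known from the founding of new roots on cut leaves. Dry Col-0 held 10, 10 and 10 counts, or 0.260 ± 0.0179 CPM, and imbibed Col-0 103, 140.2 and 134 CPM. Dry libraries labelled erf4 held 41, 2 and 26 counts and imbibed ones 89.97, 120.2 and 90.8 CPM. The genotypes overlapped in both states, and the rise in libraries labelled erf4 was 6.88 ± 0.41 (edgeR adjusted p = 2.13e-07). WOX11 lies at 889166 to 892229 on chromosome 3, and no other gene overlaps its exons.

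NTL8 encodes a membrane-tethered NAC factor with a known part in germination under salt. Dry Col-0 held 6, 7 and 0 counts, against 84, 8 and 41 counts in dry libraries labelled erf4. In imbibed seeds it reached 41.7, 35.1 and 25.8 CPM in Col-0 and 50.5, 39.2 and 35.3 CPM under the erf4 label (4.69 ± 0.47, edgeR adjusted p = 7.35e-06). The genotypes did not overlap when dry, on the CPM scale, where the rule had picked low Col-0 levels. They overlapped when imbibed. GTL1, a trihelix repressor that limits the growth of trichomes and root hairs, stood at 10.03, 12.9 and 9.66 CPM in imbibed Col-0 and 22.6, 13.5 and 21.9 CPM in imbibed libraries labelled erf4. All 3 libraries labelled erf4 lay above Col-0 in each state, with the same limit for dry seeds. In libraries labelled erf4 GTL1 rose by 4.66 ± 0.38 with imbibition (edgeR adjusted p = 7.91e-07). Without the dry library of replicate 1 the rises of NTL8 and GTL1 were 5.34 and 5.29.

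Hormone and signalling genes made up 6 members. PYL6, an ABA receptor of the PYR/PYL family, had 0, 2 and 2 counts in dry Col-0 and no count in the 3 dry libraries labelled erf4. After imbibition it stood at 6.505, 5.06 and 4.27 CPM in Col-0 and 3.95, 4.32 and 7.42 CPM in libraries labelled erf4. It was at least 191.3-fold higher there than when dry, against a floor of 3 counts over the group (edgeR adjusted p = 2.28e-06). SNRK2-8, a SnRK2 kinase activated by osmotic stress, had 27.1, 34.6 and 16.4 CPM in imbibed Col-0 and 29.4, 19.5 and 35.3 CPM in imbibed libraries labelled erf4 (3.41 ± 0.47, edgeR adjusted p = 7.1e-05). It shares 169 exonic bp with AT1G78280 on the other strand, which had 1254 to 2566 counts per library. CYP94C1, a cytochrome P450 that oxidises jasmonoyl-isoleucine, the active jasmonate, stood at 11.4, 10.2 and 18.8 CPM in imbibed Col-0. It stood at 6.64, 8.78 and 8.36 CPM in imbibed libraries labelled erf4, all below Col-0, after a rise of 3.26 ± 0.66 (edgeR adjusted p = 0.00127). The dry libraries labelled erf4 held 18, 2 and 46 counts of CYP94C1 and 53, 22 and 131 counts of SNRK2-8, and without that of replicate 3 the rises were 4.41 and 4.29.

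The SAUR-like auxin-response gene AT1G17345 stood at 7.76 ± 2.29 CPM in imbibed Col-0 and 9.147 ± 0.830 CPM in imbibed libraries labelled erf4. AT3G50230, a leucine-rich repeat kinase gene, stood at 7.02 ± 2.41 and 9.53 ± 0.770 CPM. AT1G74940, of the DUF581 family, stood at 4.77 ± 1.41 and 5.92 ± 0.366 CPM. For these 3 genes the imbibed genotypes overlapped, and their log2 fold changes with imbibition in libraries labelled erf4 were 5.85, 3.83 and 4.36 (edgeR adjusted p = 2.94e-05, 4.16e-06 and 1.25e-05). All 12 dry counts of AT1G17345 in libraries labelled erf4 were in replicate 3, and its rise was 5.18 without the dry library of replicate 1.

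Genes of lipids and sugars made up 5 members. PATL1, a Sec14-domain protein that binds phosphoinositides at the forming cell plate, varied little within the imbibed groups, with 167, 158 and 176 CPM in Col-0 and 95.96, 98.6 and 106 CPM in libraries labelled erf4. All of the latter lay below Col-0, and the dry means were 4.32 ± 0.796 and 4.404 ± 1.93 CPM. PATL1 rose by 4.01 ± 0.24 in libraries labelled erf4 (edgeR adjusted p = 1.3e-07). AT3G23470, annotated as a cyclopropane-fatty-acyl-phospholipid synthase, had 1 count over the 3 dry Col-0 libraries and 4 over the dry libraries labelled erf4. It reached 5.28, 7.26 and 8.23 CPM in imbibed Col-0 and 8.47, 5.32 and 8.02 CPM in imbibed libraries labelled erf4 (7.02 ± 0.67, edgeR adjusted p = 2.43e-06). All 4 of those dry counts were in replicate 3, and the rise was 6.35 without the dry library of replicate 1.

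The GDSL lipase genes AT1G28660 and AT2G24560 stood at 10.5 ± 3.46 and 6.67 ± 2.59 CPM in imbibed Col-0. In imbibed libraries labelled erf4 they stood at 15.3 ± 4.39 and 17.4 ± 6.35 CPM, and for AT2G24560 all 3 lay above Col-0. DIN10, of the raffinose synthase family, had 13.3, 13.3 and 9.71 CPM in imbibed Col-0 and 29.0, 14.8 and 21.9 CPM in imbibed libraries labelled erf4, again all above Col-0. These 3 genes rose with imbibition in libraries labelled erf4 by 5.39, 4.69 and 4.12 on the log2 scale (edgeR adjusted p = 5.78e-06, 1.33e-05 and 3.93e-05). For DIN10 it was 4.75 without the dry library of replicate 3.

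Proteases, their inhibitors and ATPases made up 5 members. AATP1, an AAA-type ATPase gene, was the only member with no count in any of the 6 dry libraries. It stood at 9.77, 7.88 and 3.75 CPM in imbibed Col-0 and 7.14, 4.11 and 17.1 CPM in imbibed libraries labelled erf4. Against 3 counts over each dry group, imbibed levels were at least 275.4-fold and at least 345.6-fold higher (edgeR adjusted p = 4.51e-05 for the latter). Without the imbibed library of replicate 3 imbibed levels labelled erf4 were at least 205.7-fold higher. AT5G17760, a P-loop nucleoside triphosphate hydrolase gene, had no count in dry Col-0 and 10, 0 and 10 counts in dry libraries labelled erf4. When imbibed it stood at 9.74, 10.7 and 11.4 CPM in Col-0 and 6.01, 5.14 and 8.62 CPM in libraries labelled erf4, all below Col-0 (4.70 ± 0.53, edgeR adjusted p = 2.07e-05).

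RBL7, a rhomboid-like protein of a family of intramembrane proteases, had 2 counts over the libraries of each dry group, all in replicate 3. It stood at 6.33, 5.51 and 4.38 CPM in imbibed Col-0 and 1.93, 2.57 and 2.99 CPM in imbibed libraries labelled erf4, without overlap. In the latter genotype the ratio of imbibed to dry means was 132 (95% counting interval 37.6 to 1138), and the rise passed the test (edgeR adjusted p = 1.82e-05). The fitted log2 fold change of RBL7 was 6.39 with all libraries and 5.75 without the dry library of replicate 1. The serine carboxypeptidase-like gene scpl20 had 15.2, 35.3 and 22.1 CPM in imbibed Col-0 and 48.8, 27.1 and 58.8 CPM in imbibed libraries labelled erf4 (4.77 ± 0.90, edgeR adjusted p = 0.000965). Its dry libraries labelled erf4 held 20, 4 and 104 counts, and without that of replicate 3 the rise was 6.61. CYSA, a cystatin that inhibits cysteine proteases, stood at 14.3 ± 2.26 and 10.07 ± 2.76 CPM (3.97 ± 0.31, edgeR adjusted p = 5.43e-07). CYSA shares 70 exonic bp with CYP98A3 (2024 to 3416 counts per library) and RBL7 25 bp with IQD22 (711 to 2655 counts), each on the other strand.

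Genes of nucleic acids made up 5 members, all with mean levels under 10 CPM. The reference annotation classes 2 as small nucleolar RNA (snoRNA) genes. These, AT1G09787 (66 bp) and AT1G07393 (53 bp) are shorter than the reads of 150 bases named in the labels, so their levels per kb are not comparable with those of other genes. AT1G09787 stood at 9.53 ± 1.24 CPM in imbibed Col-0 and 7.53 ± 2.32 CPM in imbibed libraries labelled erf4. It lies 91 bp from the microRNA gene MIR775 on the same strand, which itself had mean levels of 0.30 and 6.92 CPM in dry and imbibed Col-0 and 0.37 and 20.65 CPM in libraries labelled erf4. AT1G07393 stood at 3.59, 6.87 and 3.22 CPM in imbibed Col-0 and 12.03, 4.69 and 2.66 CPM in imbibed libraries labelled erf4. Both snoRNA genes rose under the erf4 label (4.02 ± 0.48 and 6.14 ± 0.96, edgeR adjusted p = 1.5e-05 and 0.000159). The rise of AT1G07393 was 7.11 without the dry and 5.36 without the imbibed library of replicate 1.

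AT1G62910, a pentatricopeptide repeat gene of a class that acts on organelle RNA, stood at 3.32 ± 0.477 CPM in imbibed Col-0 and 4.22 ± 0.844 CPM in imbibed libraries labelled erf4. AT4G03292, annotated as ribonuclease H-like, had no count in dry Col-0 and stood at 3.43 ± 0.938 and 5.29 ± 1.45 CPM when imbibed. Under the erf4 label AT1G62910 and AT4G03292 rose by 4.83 and 5.12 on the log2 scale (edgeR adjusted p = 4.7e-05 and 3.4e-05), the latter by 5.90 without the dry library of replicate 1. AT2G48030, annotated as DNase I-like, had the highest adjusted p of the members. Its dry libraries labelled erf4 held 32, 0 and 0 counts and the imbibed ones 2.04, 2.94 and 3.57 CPM, a rise of 2.94 ± 0.96 (edgeR adjusted p = 0.0191). It missed the threshold on the 6 libraries labelled erf4 alone, without both of replicate 3, and with DESeq2, with adjusted p up to 0.0875 in edgeR or DESeq2.

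The remaining 7 members have no described function in the annotation or only a domain of unknown function. AT3G19680 and AT1G10020 both belong to the DUF1005 family. AT3G19680 stood at 129, 104 and 113 CPM in imbibed Col-0 and 37.1, 55.2 and 65.9 CPM in imbibed libraries labelled erf4, a ratio of means of 0.458, the lowest of the group. Its dry means were 2.08 ± 0.711 and 2.13 ± 0.537 CPM, and it rose by 4.13 ± 0.26 in libraries labelled erf4 (edgeR adjusted p = 1.69e-07). AT1G10020 had 24.5, 24.2 and 19.7 CPM in imbibed Col-0 and 19.9, 19.6 and 20.4 CPM in imbibed libraries labelled erf4, with overlap. AT3G07460, of the DUF538 family, stood at 49.6 ± 3.33 and 34.6 ± 3.93 CPM without overlap between genotypes. AT4G35985, similar to senescence- and dehydration-associated proteins, had 20.9, 16.5 and 17.7 CPM in imbibed Col-0 and 9.60, 9.28 and 29.2 CPM in imbibed libraries labelled erf4, with replicate 3 the highest. AT1G17285, AT2G40400 and AT4G31330 stood at 4.29 ± 1.09, 3.81 ± 0.830 and 3.03 ± 1.16 CPM in imbibed Col-0. In imbibed libraries labelled erf4 they stood at 3.25 ± 0.617, 4.92 ± 1.60 and 4.16 ± 1.56 CPM. AT1G10020, AT3G07460 and AT4G35985 rose there by 6.08, 4.21 and 6.23 on the log2 scale (edgeR adjusted p = 1.48e-06, 3.1e-05 and 0.00011). AT1G17285, AT2G40400 and AT4G31330 rose by 3.20, 3.74 and 2.87 (edgeR adjusted p = 0.000422, 0.000443 and 0.0107). Without the dry library of replicate 3 the rises of AT1G17285 and AT4G31330 were 3.86 and 4.49, and without that of replicate 1 the rise of AT1G10020 was 5.38. All 16 dry counts of AT4G35985 were in replicate 3, and its rise was 5.54 without the dry library of replicate 1 and 5.53 without the imbibed library of replicate 3.

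The genotypes were then set side by side in imbibed seeds, as a description, since the Col-0 levels had chosen the members. The rule had picked high levels in imbibed Col-0, so ratios of libraries labelled erf4 to Col-0 below 1 follow in part from that choice. Nothing is read from them. The mean of the libraries labelled erf4 was below the Col-0 mean in 23 members and above it in 20, with a median ratio of 0.906. Over all nuclear genes tested the median ratio was 1.10. The ratios ran from 0.458 for AT3G19680 to 5.87 for EXPA9. All 3 libraries labelled erf4 lay below all Col-0 libraries in 7 members (AT3G19680, RBL7, AGP17, CYP94C1, PATL1, AT5G17760 and AT3G07460), where the share over the genes tested was 6.43%. They lay above in 5 members (GTL1, DIN10, DGR2, AT2G24560 and EXPA1), where that share was 20.5%. Of the sums of tissue markers in the same libraries, only that of green tissue did not overlap between the genotypes. The green-tissue markers RBCS1A, CAB2 and RCA summed to 52.5, 82.3 and 72.2 CPM in imbibed Col-0 and to 180.6, 114.3 and 180.8 CPM in imbibed libraries labelled erf4, with CAB2 at or near 0. The endosperm markers, nearly all EPR1, summed to 8168 to 10516 CPM and to 1282, 8994 and 6443 CPM, and the pollen markers to 1.23 to 2.31 CPM and 1.72 to 3.20 CPM. Their part in these ratios was not tested. Replicates varied more among the members than among all genes tested, with a median coefficient of variation of 21.8% against 13.3% in imbibed Col-0 and of 28.5% against 17.5% in imbibed libraries labelled erf4. The 43 members summed to 1599.7, 1860.1 and 1804.6 CPM in imbibed Col-0 and 1493.5, 1554.9 and 1658.4 CPM in imbibed libraries labelled erf4.

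**Figure D4:**
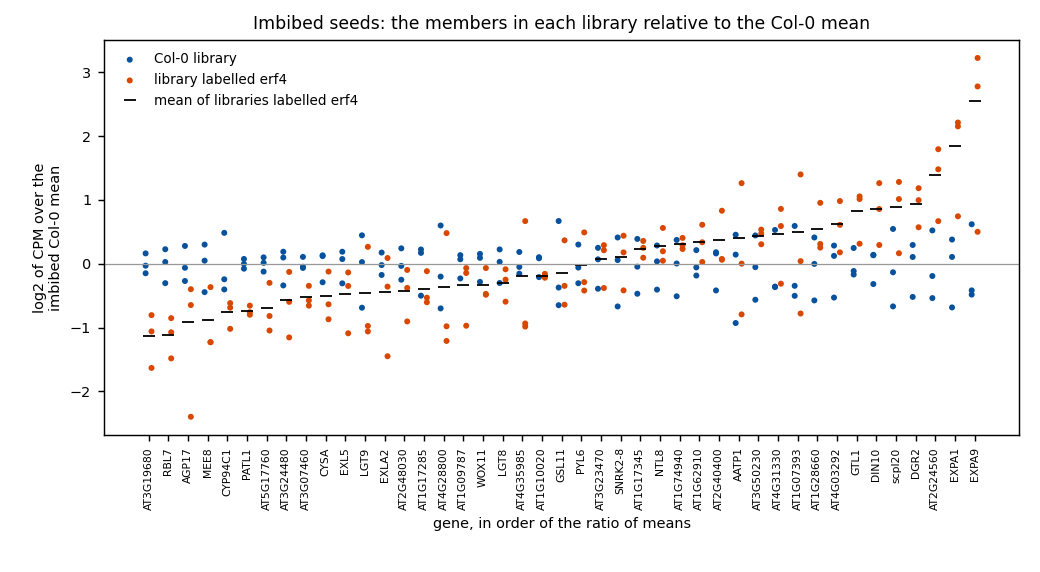
Level of each member in the 6 imbibed libraries relative to the imbibed Col-0 mean (log2 of the CPM ratio), in order of the ratio of means, 1 point per library and a dash for the mean of the libraries labelled erf4. Ratios run from 0.458 for AT3G19680 on the left to 5.87 for EXPA9 on the right.

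In dry seeds the members were not equally low in all libraries labelled erf4. Their summed level was 27.3, 31.3 and 20.5 CPM in dry Col-0 and 51.6, 27.7 and 66.2 CPM in dry libraries labelled erf4 replicates 1, 2 and 3. Of the dry libraries labelled erf4, replicate 2 was the lowest in 22 members and replicate 3 the highest in 27. The green-tissue markers summed to 40.6 to 48.5 CPM in dry Col-0 and to 102.6, 55.4 and 177.6 CPM in the same 3 libraries, with CAB2 at or near 0 throughout and RBCS1A the most abundant of the 3. The endosperm markers summed to 3637, 13378 and 12318 CPM there and to 13487 to 22145 CPM in dry Col-0, and the pollen markers summed to 12.5 to 38.2 CPM and to 143.0 to 266.8 CPM in these groups. The seed markers summed to 111137 to 117267 CPM in dry libraries labelled erf4 and to 137947 to 161647 CPM in dry Col-0. None of these sums of markers overlapped between the dry genotypes. The part of these in the dry levels of the members was not tested. The rule had picked low levels in dry Col-0, so ratios of libraries labelled erf4 to Col-0 above 1 follow in part from the choice of members, and nothing is read from them. With that limit, their median was 2.26 across the 39 members with a count in both dry groups, beside 1.09 over the nuclear genes tested. Libraries labelled erf4 lay above all of Col-0 in 6 members (DGR2, NTL8, GTL1, AT3G50230, AT1G74940 and AT1G17285) and below it in 0, where the shares over the genes tested were 11.5% and 5.64%.

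**Figure D5:**
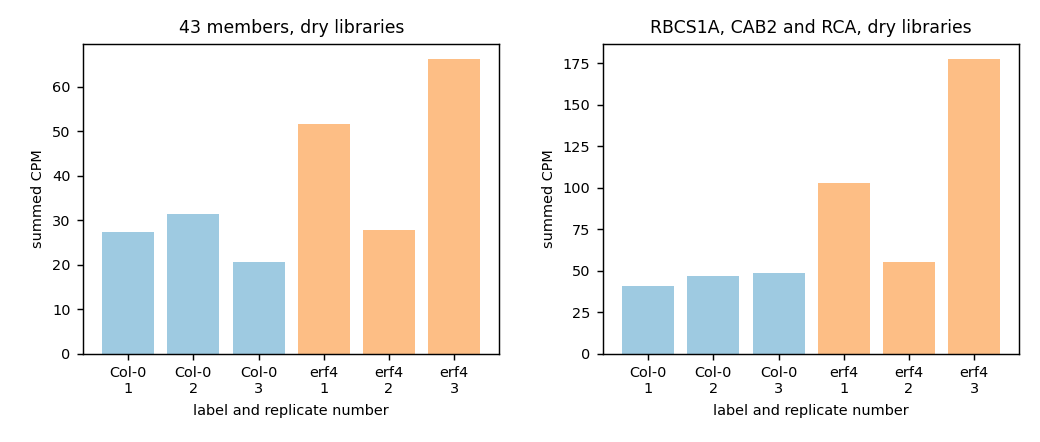
Summed CPM of the 43 members (left) and of the green-tissue markers (right) in the 6 dry libraries, 1 bar per library. In both panels the library labelled erf4 replicate 3 is the highest, at 66.2 and 177.6 CPM, and replicate 1 the next.

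The families of the members did not all rise with imbibition in libraries labelled erf4, where 28.4% of all genes tested rose and 27.2% fell. The counts per family are descriptions to be read beside these shares and were not tested. Of 9 alpha-expansin genes tested, EXPA1 and EXPA9 included, 6 rose and 1 fell, with a median log2 fold change of 3.35. Among 72 bHLH genes 24 rose and 25 fell, and among 55 NAC genes 13 rose and 13 fell. Of 26 SAUR genes 7 rose and 14 fell, and of 111 cytochrome P450 genes 19 rose and 47 fell. GDSL lipase genes numbered 45, with 16 that rose and 9 that fell, and receptor-like kinase genes 198, with 78 and 31. Families without a member among the 43 included the XTH genes, which cut and rejoin xyloglucan (17 tested, 9 rose and 3 fell). The ERF/DREB factors (66 tested, 11 rose and 21 fell) and the WRKY factors (38 tested, 2 rose and 16 fell) had none either. The 6 genes set aside by name met the rule but are not counted, so such a family may still hold genes that met it. They are also left out of the keyword counts that follow. By keywords in the annotation, 5 of the 43 members were wall genes (11.6%, against 2.1% of genes tested) and 3 were lipid genes (7.0% against 1.5%). A further 3 were transcription factors (7.0% against 4.4%). Among protein-coding members 0 fell under the keywords for ribosomes and RNA (0% against 3.6%). The 2 snoRNA genes were classed apart as non-coding (4.7% against 3.5%). The keywords miss NTL8 and GTL1, whose descriptions do not say that they are transcription factors.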

How the data were processed

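Whole-number read counts for each gene, deposited by the authors as a single table with exon coordinates, were the only input. The submitters' processing notes name HISAT2 (2.1.0), fastp (0.20.0), DESeq2 (1.34.0), featureCounts (2.0.1) and the build TAIR10, while parameters and strand setting are not given in the sources used here. Totals of 31787283 to 42590777 counts set the precision. Symbols, descriptions and promoters came from RefSeq's TAIR10.1. All 32548 nuclear identifiers matched it, 32532 with the same start and end, among them all 43 members. Levels are CPM by column total. The test was edgeR 4.0.16 (R 4.3.3) with filterByExpr, TMM factors and a robust quasi-likelihood fit of 4 group means over all 12 libraries (18897 genes, 8 residual degrees of freedom), and it was tested on simulated data. The SE is the one implied by the F statistic. Calls needed a Benjamini-Hochberg adjusted p under 0.05. Same-numbered libraries labelled erf4 deviated together between the states (r = 0.34, 0.34 and 0.35 across genes, against -0.11 to -0.21 for other numbers), so the numbers were taken to pair them, and a block was fitted as an alternative. Floors of 3 counts cover counting error only. Overlaps were read from exon coordinates. A copy was a stretch of at least 95% identity over 100 bp (BLAST 2.17.0), and the only copies were those of genes overlapping a member. The rule for named genes took the first 10 members by CPM per kb, the first of each annotation class, the 4 highest and 4 lowest ratios between genotypes, the genes next to each threshold and members with no count in any dry library. The other members were named beyond that rule, so that every member is described. Column names end in the letter b or r, whose meaning is not given in the sources used here. All imbibed columns end in r and dry ones in either, so the letter partly coincides with state. Other size factors, filters, a covariate for this letter, DESeq2 (1.42.0), stricter calls and left-out libraries were tried. Members and lists were chosen with earlier results of these data known, and the 7 roles were assigned from the annotation after the members were seen.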

Additional observations from a re-analysis of the deposited data

How the results depend on the processing

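The number of members was 115 and 23 at thresholds of 16-fold and 64-fold, 89 and 24 at 1 and 10 CPM, 32 with TMM-scaled CPM, and 39 to 61 without any one Col-0 library. In libraries labelled erf4, 43 members were called higher without any one library. With the replicate block, and with the covariate for the last letter of the column name, 43 were also called higher. The count was 42 with DESeq2 and on the 6 libraries labelled erf4 alone (43 with the replicate block added, an alternative chosen after seeing the data), and 41 without both libraries of replicate 3 and at an adjusted p under 0.01. Under 22 refits, 41 members kept their call. The median log2 fold change of the members was 4.36 to 4.80 without any one library, at 4.36 when replicate 2 of the dry libraries labelled erf4 was left out, and 4.73 with the replicate block. With the covariate for the letter it was 4.9. Over all genes 4787 to 5442 rose and 4635 to 5142 fell without any one library, beside 5358 and 5138 in all. With a log2 fold change of at least 1 also required, 3162 rose and 2827 fell. Without TMM scaling the median gene stood at 0.54 rather than 0.04. Counts of 0 to 3 in dry libraries limit the folds of the lowest members.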
